A study of Mus musculus with 20 samples.

Results

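The genes described here are the activators of the circadian clock and the Dec repressors, 5 genes chosen by name among 24062 gene symbols: Arntl (which encodes BMAL1), Clock, Npas2, Bhlhe40 (Dec1) and Bhlhe41 (Dec2). All 5 passed the filter on low counts, as did 19209 genes in all. Their mRNA was measured by bulk RNA sequencing of lymphatic endothelial cells (LECs), sorted as live CD31+podoplanin+ cells from mouse ear skin at zeitgeber time (ZT) 1, 7, 13 and 19, in hours after light onset, to ask how gene expression in these cells differs with time of day. Each time point had 5 libraries, 20 in all. All groups were wild-type C57BL/6 mice at postnatal day 56 (male C57BL/6N in the methods of the study) with no treatment or transgene named in the labels, and each library pooled ears from a pair of mice, so that variation between single animals was not measured.

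BMAL1 pairs with CLOCK, or with the closely related NPAS2, and the pair binds E-box sequences to switch on the Per, Cry, Nr1d and Dbp genes. DEC1 and DEC2 bind E-boxes as repressors, and their own genes are E-box targets. REV-ERB proteins (from Nr1d1 and Nr1d2) repress and ROR proteins activate Arntl through shared ROR elements, which closes a further loop.

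Reads assigned to genes numbered 4475111 to 42002363 per library, with a median of 9379794. Of all reads lying on a gene or on no gene, those on genes made up 20.2 to 29.5% in ZT1 libraries and 12.7 to 62.3% in ZT7 libraries. The range was 20.1 to 80.0% for ZT13 and 35.0 to 81.6% for ZT19. ZT7 replicate 2 (62.3%) and ZT13 replicate 5 (80.0%) stood apart from the other libraries of their time points, and differences of the 5 genes whose call changes without them are given both ways. Of 8 LEC markers, Ccl21a was at 0 in every library, none of the 7 tested was called among the time points, and their summed normalized counts ranged from 43860 to 108100. Of 10 keratinocyte markers, 5 were called (Krt5, Krt14, Krt15, Perp and Sfn), and their summed level ran from 31950 to 66630 (ZT1), 56890 to 171400 (ZT7), 9841 to 29010 (ZT13) and 87670 to 179600 (ZT19). None of the blood endothelium, fibroblast, leukocyte, or smooth muscle and pericyte markers was called. In these bulk samples, fewer cells of a type and less RNA per cell cannot be told apart.

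RefSeq promoter windows (GRCm38.p6, 250 bases before to 50 after a start) were at hand for 4 of the 5 genes, 7 windows in all, with none for Bhlhe40. Both strands were searched for CACGTG (E-box), CACGTT (E-prime box), AGGTCA (ROR core), the ROR element (the core after an A/T-rich flank, so that each such element also holds a core) and TTATGTAA or TTACGTAA (D-boxes). The loop is known to act through E-boxes and, at Arntl, through ROR elements. The Clock site holds only the core without the flank, and whether the loop acts through it was not tested. The 3 sites below are 30 bases each, 5′ to 3′ on the gene's strand, with the match in capitals.
Arntl, ROR element, chr7:113207528-113207557, plus strand: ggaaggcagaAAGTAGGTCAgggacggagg
Bhlhe41, E-box, chr6:145865556-145865585, minus strand: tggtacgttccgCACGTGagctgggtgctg
Clock, ROR core on the opposite strand, chr5:76303604-76303633, minus strand: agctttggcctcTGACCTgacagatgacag

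Counted from the RefSeq start of its window, the Arntl match began at base 28, the Bhlhe41 match at base -153 and the Clock match at base -119. The Clock match lay in 1 of 3 Clock windows. These starts differ from those of the gene coordinates given below, and the Clock site lies inside the Clock gene as given there. Among 32851 windows of the same length, 0.219% held the ROR element, 7.15% the E-box and 16.3% the ROR core. The E-prime box (4.68% of windows) and the D-boxes (0.938 and 0.119%) had no match in the windows of these genes. A match describes letters in a window and is not a measurement of binding.

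By level per kilobase of exon, which allows comparison between genes, Bhlhe40 was the most abundant of the 5, at 472 ± 233 normalized counts per kb (SD, n = 20). Pooled over the time points, Clock followed at 70.8 ± 32.4, Bhlhe41 at 42.5 ± 32.1, Arntl at 35.5 ± 20.4 and Npas2 at 12.3 ± 8.11. The order differed by time: at ZT19 Clock averaged 48.6 per kb and Arntl 46.6, and Bhlhe41 was lower at 17.1. Normalized counts here are read counts divided by the TMM-scaled library size. The other values below are normalized counts per gene.

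No member was called at an adjusted p of 0.05 in any of 8 comparisons by the quasi-likelihood test of edgeR (Benjamini-Hochberg adjustment). Among the 4 time points, 0 of 5 members were called, beside 0.422% of all genes tested. At an unadjusted p of 0.05 the count was 3 of 5, beside 15.7% of all genes, and DESeq2 called 1 (Bhlhe41), beside 3.12%. For the 24-h curve, 0 of 5 were called, beside 0.0312% of all genes, with 2 at an unadjusted p of 0.05 (9.23% of all genes) and 0 by DESeq2 (0.385%).

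Between pairs of time points, 0 of 5 members were called in each of the 6 pairs. The background share of all genes was 0.00521% from ZT1 to ZT7, 0.0208% from ZT1 to ZT13, 0.0156% from ZT1 to ZT19, 0.0937% from ZT7 to ZT13, 0.0156% from ZT7 to ZT19 and 0.588% from ZT13 to ZT19. At an unadjusted p of 0.05 the member counts were 0, 3, 3, 0, 1 and 1 in the same order, beside 4.97, 5.37, 21.6, 2.59, 19.7 and 19.2% of all genes. DESeq2 called 0, 0, 2, 0, 1 and 0 members, beside 0.0625, 0.39, 10.3, 0.422, 10.8 and 9.24%. The 5 against 5 libraries of a pair did not overlap in 2 of 30 cases, Arntl from ZT1 to ZT13 and Bhlhe41 from ZT1 to ZT19, both higher at ZT1. Over all genes the share with no overlap and the earlier time higher was 1.17, 0.984, 6.17, 0.75, 1.02 and 0.614% in the order above, and with the later time higher 0.578, 0.489, 2.38, 0.255, 0.921 and 1.87%. The median log2 difference of all genes tested was 0.05, -0.06, -0.39, -0.07, -0.20 and -0.22. For each gene, time points were ordered by level, and the 15 neighbouring steps in these orders had log2 differences of 0.01 to 0.99 whose intervals all included 0, so that no neighbours differed beyond their spread.

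**Figure D1:**
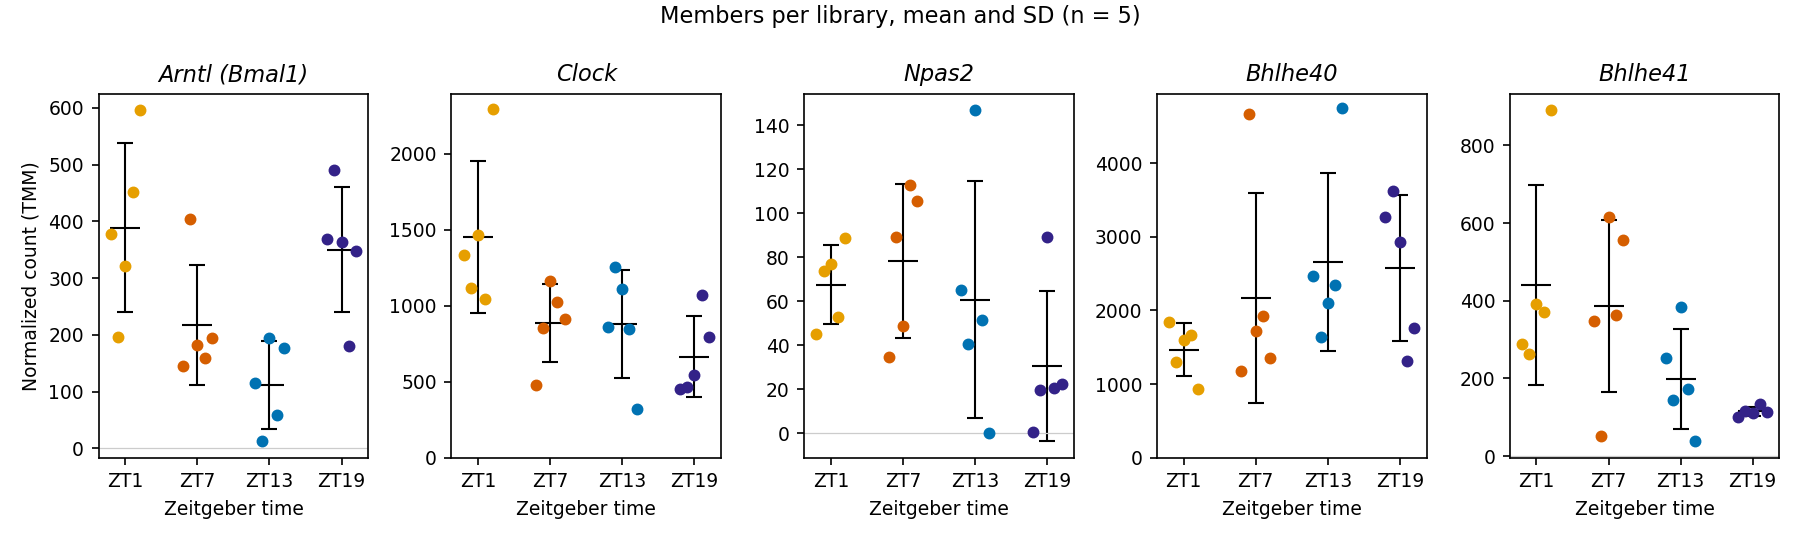
Normalized counts (TMM, linear axis) of the 5 genes at each zeitgeber time. Points are the 5 libraries, and the bar and whiskers are the mean and SD. Arntl at ZT1 lay above all ZT13 libraries, and Bhlhe41 at ZT1 lay above all ZT19 libraries.

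Arntl, the obligate partner of both CLOCK and NPAS2 (ENSMUSG00000055116.8, GRCm38 chr7:113207465-113314126, plus strand), had its highest means at ZT1 and ZT19 and its lowest at ZT13. Its normalized counts were 377, 196, 322, 452 and 596 at ZT1, replicates 1 to 5. They were 146, 405, 182, 159 and 196 at ZT7. At ZT13 they were 116, 12.7, 194, 59.7 and 177, and at ZT19 369.8, 489.8, 364, 181 and 349. Every ZT1 library lay above every ZT13 library, whereas ZT13 and ZT19 overlapped through ZT19 replicate 4.

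Arntl averaged 389 ± 149 (ZT1), 218 ± 106 (ZT7), 112 ± 76.9 (ZT13) and 351 ± 111 (ZT19; mean ± SD, n = 5). From ZT1 to ZT13 the log2 difference was -1.79 (SE 0.53, 95% interval -2.88 to -0.71, adjusted p = 0.487 by edgeR). Non-overlap with ZT1 higher was seen in 0.984% of all genes in this pair. From ZT13 to ZT19 the log2 difference was 1.65 (SE 0.53, interval 0.57 to 2.72, adjusted p = 0.0974). Without ZT7 replicate 2 and ZT13 replicate 5 it was 2.06, with an adjusted p of 0.0285, and with the log2 odds of a read lying on a gene as covariate it was 1.37, with an adjusted p of 0.292. The 24-h curve fitted to Arntl had its peak at 23.6 h and a log2 amplitude of 0.96 (adjusted p = 0.415), and its peak ranged from 22.95 to 23.95 h when single libraries were left out. With the read share as covariate the amplitude was 0.99 and the peak 0.477 h. The summed keratinocyte markers also differed between ZT13 and ZT19 without overlap. They were lowest in ZT13 replicate 2 (9841), where Arntl was lowest, and at ZT7 highest in replicate 2 (171400), where Arntl was highest. Other libraries went the other way. At ZT1 the markers were highest in replicate 2 (66630), where Arntl was lowest (196). At ZT19 they were lowest in replicate 2 (87670), where Arntl was highest (489.8). In ZT13 replicate 5 they were 10980, with Arntl at 177. At ZT1 they were at most 66630, while Arntl was at its highest mean. Their part in the Arntl values was not tested. This gene carries the ROR element printed above.

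Clock, which encodes the other subunit of the activator and has histone acetyltransferase activity (ENSMUSG00000029238.11, chr5:76209868-76304792, minus strand), had its highest mean at ZT1 and its lowest at ZT19. Its normalized counts were 1334, 1119, 1465, 1046 and 2299 at ZT1. They were 477, 855, 1164, 1025 and 912 at ZT7. At ZT13 they were 859, 1259, 1111, 847 and 324, and at ZT19 452, 468, 545, 1072 and 796. The ZT1 and ZT19 libraries overlapped only in that ZT19 replicate 4 exceeded ZT1 replicate 4.

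Clock averaged 1453 ± 502 (ZT1), 887 ± 258 (ZT7), 879.9 ± 356 (ZT13) and 667 ± 265 (ZT19; mean ± SD, n = 5). From ZT1 to ZT19 the log2 difference was -1.12 (SE 0.36, interval -1.86 to -0.39, adjusted p = 0.0951 by edgeR and 0.0211 by DESeq2). Without ZT19 replicate 4 it was -1.37, with an adjusted p of 0.0415 by edgeR. With the read share as covariate it was -0.51 (adjusted p = 0.734), and the adjusted p among the 4 time points went from 0.26 to 0.658. The summed leukocyte markers were 280.1 to 825 at ZT1 and 0 to 201 at ZT19. They were highest at ZT19 in replicate 4 (201), where Clock was highest, and lowest at ZT13 in replicate 5 (102), where Clock was lowest. At ZT1 they were instead highest in replicate 2 (825), with Clock at 1119, and Clock was highest in replicate 5 (2299). At ZT7 they were lowest in replicate 2 (58.9), but Clock was lowest in replicate 1 (477). Keratinocyte markers also separated ZT1 (at most 66630) from ZT19 (at least 87670). Their part in the Clock values was not tested. The ZT7 and ZT13 levels differed by -0.01 on the log2 scale (interval -0.74 to 0.72). The fitted curve had an amplitude of 0.42 and a peak at 2.98 h (adjusted p = 0.589), or 0.29 and 23.4 h with the covariate.

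Npas2, the relative of CLOCK that can take its place beside BMAL1 (ENSMUSG00000026077.15, chr1:39193731-39363236, plus strand), was the least abundant member per kb. Its normalized counts were 45.1, 73.8, 76.7, 52.6 and 88.6 at ZT1. They were 34.4, 89.2, 48.7, 112.9 and 105.5 at ZT7. At ZT13 they were 64.9, 40.3, 146.8, 51.2 and 0, and at ZT19 0.255, 19.5, 89.1, 20.6 and 22.1. The value at 0 was ZT13 replicate 5, where a count of 0 allows up to 3 counts, or 0.648 normalized counts, and ZT19 replicate 1 rested on 1 read; these limits cover counting error only. All time points overlapped. The largest difference, from ZT7 to ZT19, was -1.36 on the log2 scale (SE 1.16, interval -3.74 to 1.01, adjusted p = 0.528 by edgeR), an interval too wide to place the gene as flat or as varying. This difference was -2.32 without ZT19 replicate 3 and -0.37 with the read share as covariate.

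Bhlhe40, the Dec1 repressor, which also responds to hypoxia and cell stimulation (ENSMUSG00000030103.11, chr6:108660629-108666925, plus strand), had its lowest mean at ZT1. Its normalized counts were 1840, 1300, 1597, 1668 and 939 at ZT1. They were 1176, 4666, 1726, 1925 and 1351 at ZT7. At ZT13 they were 2464, 1641, 2101, 2345 and 4745, and at ZT19 3273, 3621, 2924, 1318 and 1756. The highest values at ZT7 and ZT13 were those of replicate 2 and replicate 5, the libraries with the largest share of reads on genes, and all time points overlapped.

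Bhlhe40 averaged 1469 ± 355 (ZT1), 2169 ± 1427 (ZT7), 2659 ± 1208 (ZT13) and 2578 ± 994 (ZT19; mean ± SD, n = 5). The log2 difference was 0.86 from ZT1 to ZT13 (SE 0.39, interval 0.05 to 1.66, adjusted p = 0.866 by edgeR), 0.53 without ZT13 replicate 5 and 0.55 with the read share as covariate. It was 0.81 from ZT1 to ZT19 (SE 0.39, interval 0.01 to 1.61, adjusted p = 0.226). The latter was 0.03 with the read share as covariate (adjusted p = 0.99) and 1.08 without ZT7 replicate 2 and ZT13 replicate 5 (adjusted p = 0.0451). Of 10 genes known to respond to tissue dissociation, Fos and Fosb were called among the time points, and the list summed to 15490 to 33980 (ZT1), 13610 to 24490 (ZT7), 30420 to 99060 (ZT13) and 33860 to 57560 (ZT19). Its part in the Bhlhe40 values was not tested. The antisense gene 0610040F04Rik overlaps the start of Bhlhe40, and since the strand setting of the counting is not given in the sources used here, reads of the overlap cannot be told apart.

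Bhlhe41, the Dec2 repressor (ENSMUSG00000030256.11, chr6:145858243-145865558, minus strand), had its highest mean at ZT1 and its lowest at ZT19. Its normalized counts were 288, 263, 393, 371 and 891 at ZT1. They were 348, 50.9, 616, 364 and 556 at ZT7. At ZT13 they were 252, 143, 385, 173 and 38.0, and at ZT19 99.8, 115, 112, 134 and 113. The ZT19 libraries lay close together, all below the ZT1 libraries, while ZT7 replicate 2 and ZT13 replicate 5 lay below all of them.

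Bhlhe41 averaged 441 ± 257 (ZT1), 387 ± 221 (ZT7), 198 ± 129 (ZT13) and 115 ± 12.4 (ZT19; mean ± SD, n = 5). From ZT1 to ZT19 the log2 difference was -1.94 (SE 0.55, interval -3.08 to -0.80, adjusted p = 0.093 by edgeR and 0.0137 by DESeq2). Non-overlap with ZT1 higher was seen in 6.17% of all genes in this pair. From ZT7 to ZT19 the difference was -1.75 (SE 0.55, interval -2.88 to -0.62, adjusted p = 0.107 by edgeR and 0.0104 by DESeq2). Once the fit held the read share as a covariate, the ZT1 to ZT19 difference was -0.30 (adjusted p = 0.921), and the ZT7 to ZT19 difference was 0.02 (adjusted p = 0.998), so that the direction of the latter was not kept. Without ZT7 replicate 2 and ZT13 replicate 5, these differences were -1.72 (adjusted p = 0.0209) and -1.96 (adjusted p = 0.0221). Among the 4 time points, the adjusted p was 0.195 by edgeR, 0.689 with that covariate, 0.0491 by DESeq2, and 0.0255 by edgeR without ZT7 replicate 2 and ZT13 replicate 5. The summed level of 8 leukocyte markers, higher in every ZT1 library than in any ZT19 library, was lowest at ZT7 in replicate 2 (58.9) and at ZT13 in replicate 5 (102). The 6 smooth muscle and pericyte markers were likewise lowest in these libraries (99.5 and 182), with ZT1 (189 to 864) and ZT19 (63.5 to 459) overlapping. The 8 fibroblast markers summed to 4547 to 16050 (ZT1), 844 to 4155 (ZT7), 262 to 8210 (ZT13) and 1015 to 11330 (ZT19). They were lowest at ZT7 in replicate 2 (844) but highest at ZT13 in replicate 5 (8210), where Bhlhe41 was lowest. Keratinocyte markers were lower in every ZT1 library (at most 66630) than in any ZT19 library (at least 87670). They were highest at ZT7 in replicate 2 (171400), while ZT13 replicate 5 had 10980, near the lowest of its time point (9841). The part of these markers in the Bhlhe41 values was not tested. Its 24-h curve had a peak at 4.76 h and a log2 amplitude of 1.05 (adjusted p = 0.403). With the covariate the amplitude was 0.46 and the peak 1.21 h.

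**Figure D2:**
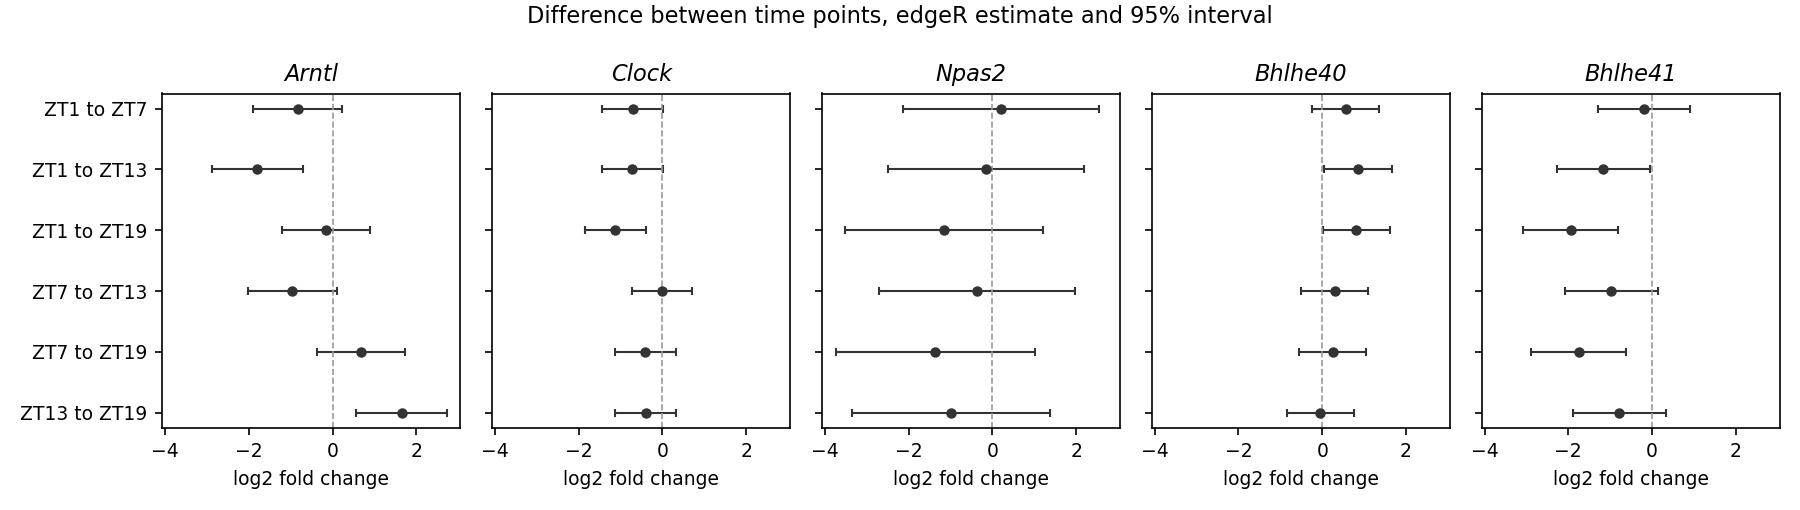
The log2 fold change (second time point minus first) of each gene in the 6 pairs of time points. Points are edgeR estimates, bars are 95% intervals and the dashed line is 0. Of 30 intervals, 8 left out 0, 3 of them of Bhlhe41.

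Correlation with the share of reads on genes was common among all genes tested, with a median r of -0.348 over 19209 genes. Bhlhe41 was lower where the share, as log2 odds, was higher (Pearson r = -0.864, two-sided permutation p = 1e-05, the smallest that 100000 resamples can give; Spearman rho = -0.869). Within time points r was -0.838, and without ZT13 replicate 5 and ZT19 replicate 1, the libraries farthest from the median, it was -0.843. Over all 20 libraries, 2.3% of all genes had an r as low as that of Bhlhe41 or lower, 11.9% as low as that of Npas2 and 17.3% as low as that of Clock. Npas2 had r = -0.769 (permutation p = 0.00013; rho = -0.665), -0.709 within time points and -0.514 without ZT13 replicate 5 and ZT19 replicate 1. Clock had r = -0.723 (permutation p = 0.00034; rho = -0.589), -0.673 within time points and -0.546 without the same libraries.

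Bhlhe40 moved the other way, with r = 0.666 (permutation p = 0.00136; 4.58% of all genes had an r as high or higher), 0.656 within time points and 0.514 without ZT13 replicate 5 and ZT19 replicate 1, although its rank correlation of 0.424 had a permutation p of 0.0642. Arntl had r = 0.187 (permutation p = 0.439; rho = 0.211). With ZT7 replicate 2 and ZT13 replicate 5 left out instead, r was -0.817 for Bhlhe41, -0.794 for Npas2, -0.662 for Clock, 0.518 for Bhlhe40 and 0.192 for Arntl. The share was also higher at ZT19 than at ZT1 in every library, and the part of the share in the time differences above was not tested beyond the covariate fit.

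**Figure D3:**
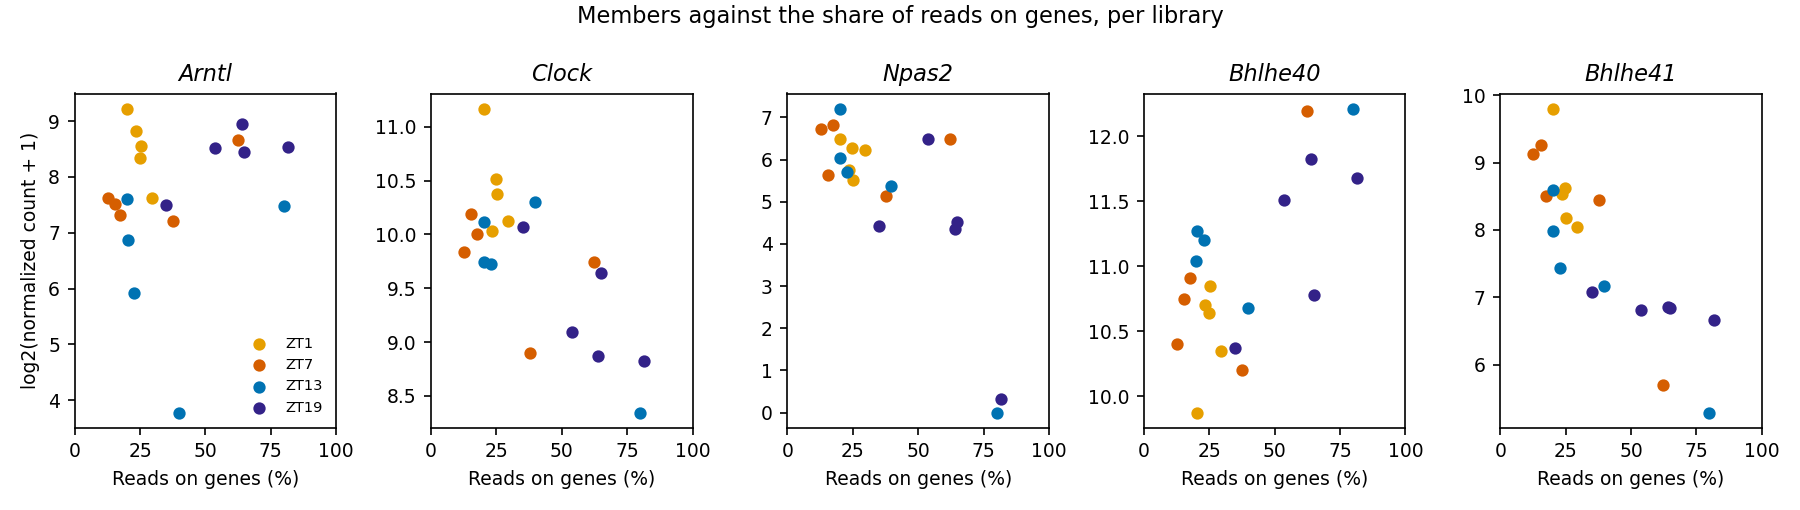
Level of each gene (log2 of normalized count plus 1) against the percentage of reads on genes, with 1 point per library and colours for zeitgeber time. Bhlhe41 descends and Bhlhe40 ascends with the share, while Arntl shows no such slope.

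The level of one Dec gene over the other within a library does not depend on the scaling between libraries. The ratio of Bhlhe40 to Bhlhe41 per kb had a median of 6.42 in ZT1 libraries (range 1.5 to 9.12), 4.83 in ZT7 (3.47 to 131), 16.4 in ZT13 (7.8 to 178) and 37.4 in ZT19 (14.04 to 46.9). All ZT19 ratios lay above all ZT1 ratios, and the highest ZT7 and ZT13 ratios were those of ZT7 replicate 2 and ZT13 replicate 5. Across libraries the log2 levels of the Dec genes had r = -0.787 (-0.731 within time points, n = 20), given as a description, since both moved with the share of reads on genes. The ratio of Clock to Arntl per kb had a median of 2.11 in ZT1 libraries (range 1.27 to 3.12) and 2.56 in ZT7 (1.16 to 3.53). The median was 4.05 in ZT13 (1.001 to 54.2) and 0.821 in ZT19 (0.524 to 3.25), and all time points overlapped. Arntl had r between -0.04 and 0.11 with the other members, but within time points 0.541 with Bhlhe40 and -0.309 with Clock. Clock and Npas2 had r = 0.664 (0.637 within time points). Values of like size were seen for Clock with Bhlhe41 (0.675), Npas2 with Bhlhe41 (0.605) and Clock with Bhlhe40 (-0.662). All of these genes moved with the share of reads on genes.

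The genes most like each member over the 20 libraries, by Pearson correlation of log2 normalized counts among 12563 genes, are a description with no test. For Arntl they were Ppif (0.891), Dgat2 (0.867) and Hmgcs1 (0.866), which had r of 0.159 to 0.211 with the share of reads on genes. For Clock they included Ext1 (0.884) and Dnm3os (0.877). Npas2 was followed by Abca12 (0.931), Dux (0.928) and Greb1l (0.922), Bhlhe40 by Ndel1 (0.905), Marveld1 (0.896) and Mgat2 (0.885), and Bhlhe41 by Mink1 (0.887), Cers3 (0.879) and Klhl32 (0.862). With the share, the neighbours of Bhlhe41 had r of -0.927 (Mink1), -0.767 (Cers3) and -0.809 (Klhl32). The neighbours of Npas2 had r of -0.799 (Abca12), -0.924 (Dux) and -0.875 (Greb1l). Those of Bhlhe40 had 0.81 (Ndel1), 0.639 (Marveld1) and 0.76 (Mgat2), and for Clock Ext1 had -0.545 and Dnm3os -0.781.

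Among 15 other clock genes, 1 was called by edgeR both among the time points and for the 24-h curve, beside 0.422 and 0.0312% of all genes. At an unadjusted p of 0.05 the count was 9 in each, beside 15.7 and 9.23%. The gene called was Dbp, a PAR bZIP factor and direct E-box target (adjusted p = 0.00409 and 0.0126 by edgeR). Its means were 237, 766, 457 and 192 from ZT1 to ZT19, with a peak at 8.69 h. Without ZT7 replicate 3 the adjusted p of its curve was 0.0536, and with replicate number as a block it was 0.063 (edgeR). The median amplitude of the 15 genes was 0.61 on the log2 scale. Among genes of the PER and CRY repressors, Per2 had its fitted peak at 13.9 h and Cry1 at 18.3 h, neither called (adjusted p = 0.52 and 0.415). Of the REV-ERB genes, Nr1d1 peaked at 6.61 h (adjusted p = 0.575) and Nr1d2 at 9.3 h (adjusted p = 0.415). DESeq2 called 4 of the 15 in each comparison (Dbp, Per3, Nr1d2 and Hlf), beside 3.12 and 0.385% of all genes.

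**Figure D4:**
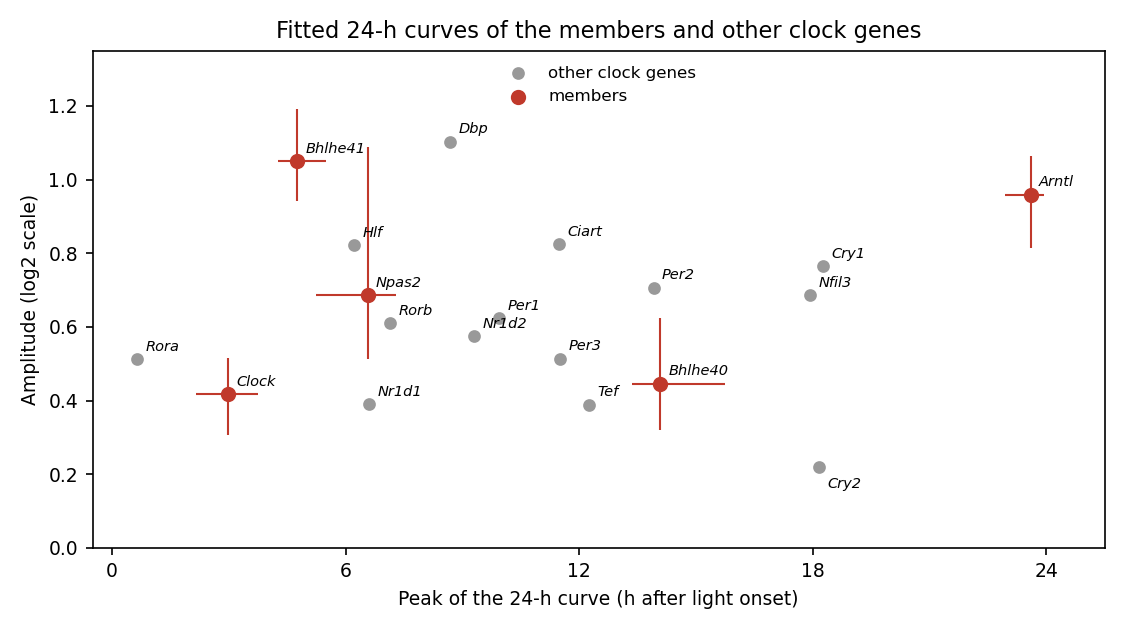
Peak time (hours after light onset) and amplitude (log2 scale) of fitted 24-h curves. Red points are the 5 genes (all 20 libraries, no covariate), with lines for the range when single libraries were left out, and grey points are other clock genes. Arntl (23.6 h) and Dbp (8.69 h) lie far apart. Only Dbp was called by edgeR, and not without ZT7 replicate 3 or with replicate number as a block.

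Relatives of the members were examined as well, and their counts stand beside the same shares of all genes as above: 15.7% (time points) and 9.23% (curve) at an unadjusted p of 0.05, and 3.12 and 0.385% by DESeq2. Of 13 bHLH-PAS relatives, the family of BMAL1, CLOCK and NPAS2, 0 were called in either comparison, with 3 and 1 at an unadjusted p of 0.05 and 2 and 0 by DESeq2 (Epas1 and Npas4). Arntl2, which encodes BMAL2, stood at 19.2 ± 12.8 normalized counts per kb (SD, n = 20). Epas1, a hypoxia-inducible factor abundant in endothelium, had means of 2761, 1261, 2237 and 623 from ZT1 to ZT19 (adjusted p = 0.118 by edgeR and 0.00498 by DESeq2). Its adjusted p was 0.0485 without ZT13 replicate 5, 0.0451 without ZT19 replicate 4 and 0.0219 without ZT7 replicate 2 and ZT13 replicate 5. Npas4 had an adjusted p of 0.133 by edgeR, 0.01 by DESeq2 and 0.0262 by edgeR without the same pair. Of 10 bHLH-Orange relatives, the Hes and Hey family to which the DEC proteins are close, 9 were tested and 0 were called, with 2 and 1 at an unadjusted p of 0.05 and 0 by DESeq2. Of 4 Id genes, whose products block bHLH factors from binding DNA, 0 were called, with 1 and 1 at an unadjusted p of 0.05 and 1 and 0 by DESeq2 (Id3).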

How the data were processed

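The authors pooled ears of a pair of mice per library, amplified RNA with a SMART-Seq kit, mapped reads to mm10 with STAR and counted them with HTSeq (1.0.0, per the labels). The deposited values are raw read counts per gene symbol. DESeq2 2.11.40.6 is also named in the submitters' notes. Rows of reads on no gene were kept out of library sizes and tests and made up 18.4 to 87.3% of each library.

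Counts were fitted with edgeR 4.0.16 in R 4.3.3 (TMM, filterByExpr, quasi-likelihood, all 20 libraries, no covariate), with Benjamini-Hochberg adjustment over 19209 genes: 4 time points, a curve with a period of 24 h, and 6 pairs. Levels used a pseudocount of 1 on the log2 scale. Lengths came from GENCODE M21 (98.4% of symbols matched). Scripts were checked on simulated data. Libraries of the same time point were compared and none were identical. Alternatives were DESeq2 1.42.0, other scalings, filters, a replicate block, that share of reads (as log2 odds) as covariate, a length offset, a fit of only the time points compared, a pseudocount of 5 and leaving out libraries. Leaving out ZT7 replicate 2 and ZT13 replicate 5, the ZT7 and ZT13 libraries over 60%, was chosen after seeing the data. ZT19 replicates 1, 2 and 5, also over 60%, were kept in that fit. Named genes were the members, fixed lists and the 3 genes most like each member, with a mean of at least 50. Members and lists were chosen with earlier results of these data known. Some items that this rule names are not reported here. P-values measure the spread between these pooled libraries.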

Additional observations from a re-analysis of the deposited data

Results flagged for a closer look

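Among 20 groups of 5 libraries (5 genes at 4 time points), 3 had a library set apart from the other libraries of its group, where chance gives about 1. Arntl at ZT7 was highest in replicate 2, with a gap to the next library of 0.715 of the range. Npas2 at ZT13 was lowest in replicate 5, with a gap of 0.745. Bhlhe41 at ZT7 was lowest in replicate 2, with a gap of 0.77. The limit for 5 libraries is 0.71, and gaps were taken on the log2 scale. ZT7 replicate 2 and ZT13 replicate 5 had 62.3% and 80.0% of reads on genes, and the part of this share was not tested.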

How the results depend on the processing

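Outside the leave-one-out fits, results of the 5 genes kept their direction and side of the threshold in 170 cases, 9 passed the threshold only under an alternative, and 1 turned direction. The adjusted p of Bhlhe41 among the 4 time points was 0.0491 with DESeq2 and 0.0255 without the ZT7 and ZT13 libraries over 60%, a setting chosen after seeing the data. With the read share as covariate, the log2 difference of Bhlhe41 from ZT7 to ZT19 was 0.019, and the peaks of 7 list genes moved by over 6 h, with adjusted p for the curve of 0.919 (Rorb), 0.701 (Arnt2), 0.866 (Ahrr), 0.972 (Sim1), 0.891 (Sim2), 0.844 (Hes2) and 0.65 (Helt). From ZT1 to ZT19 the same covariate took the log2 difference of Bhlhe41 from -1.94 to -0.30, of Clock from -1.12 to -0.51 and of Bhlhe40 from 0.81 to 0.03. The cause was not tested. Other scalings and the covariate moved the median log2 difference of all genes by -0.287 to 0.501.

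In the order 4 time points, 24-h curve, ZT1 to ZT7, ZT1 to ZT13, ZT1 to ZT19, ZT7 to ZT13, ZT7 to ZT19 and ZT13 to ZT19, edgeR called 81, 6, 1, 4, 3, 18, 3 and 113 of all genes, and DESeq2 called 599, 74, 12, 75, 1987, 81, 2079 and 1775. Without the ZT7 and ZT13 libraries over 60%, and with those of ZT19 kept, the counts were 843, 20, 0, 0, 1845, 1, 2378 and 2093. DESeq2 called 1 member among the 4 time points, 2 from ZT1 to ZT19 and 1 from ZT7 to ZT19, and without those libraries edgeR called 1, 2 and 1, and 1 from ZT13 to ZT19. With the covariate the counts that moved over 1.5 times were 49 (4 time points), 3 (curve), 4 (ZT1 to ZT7), 0 (ZT1 to ZT19), 1 (ZT7 to ZT19) and 54 (ZT13 to ZT19). Upper-quartile scaling gave 52 for the 4 time points, 9 from ZT1 to ZT13 and 11 from ZT1 to ZT19. Size factors of DESeq2 in edgeR gave 0 from ZT1 to ZT7, 9 from ZT1 to ZT13 and 24 from ZT1 to ZT19. The stricter filter gave 0 from ZT1 to ZT7 and 70 from ZT1 to ZT19, and the length offset gave 1 from ZT1 to ZT19. A fit of only the time points compared gave 2 from ZT1 to ZT13, 5 from ZT7 to ZT13, 0 from ZT7 to ZT19 and 32 from ZT13 to ZT19.

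Replicate numbers did not pair the libraries: deviations of same-numbered libraries had a mean correlation of 0.0442 (-0.541 to 0.343), with 12 of 30 pairs over 0.1, and 5 of 20 libraries were nearest their own number. With the replicate block, edgeR called 31 genes among the 4 time points, 0 for the curve, 0 from ZT1 to ZT7, 1 from ZT1 to ZT13, 0 from ZT1 to ZT19, 0 from ZT7 to ZT19 and 58 from ZT13 to ZT19. No member was called, and the adjusted p of the Dbp curve was 0.063.

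When each library was left out in turn, the counts of all genes ranged from 30 to 178, 0 to 10, 0 to 1, 0 to 8, 0 to 902, 2 to 36, 0 to 4 and 63 to 853 in the order above. The highest were without ZT19 replicate 4 (178 and 902) and ZT13 replicate 5 (853). Members called stayed at 0 except from ZT1 to ZT19, where they were 0 to 1 (Clock, without ZT19 replicate 4). The peak moved by over 6 h in one such fit each for Hey1 (adjusted p 0.76 to 0.991) and Id4 (0.8694 to 0.9998). Npas2 rested on 0 to 156 reads per library, with 0 and 1 in ZT13 replicate 5 and ZT19 replicate 1, the libraries with the most reads on genes.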
